A study of Homo sapiens with 20 samples.

Results

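Laminins are the main scaffold-forming glycoproteins of basement membranes, the thin sheets of extracellular matrix on which epithelial cells rest. Each secreted laminin is a trimer of 1 alpha, 1 beta and 1 gamma chain. Beta and gamma chains pair first inside the cell, and the alpha chain joins last and carries most of the sites that bind integrins and dystroglycan on cells. Adult liver is unusual in that the space between hepatocytes and sinusoids holds little basement membrane, whereas bile ducts and vessels are surrounded by one. The laminin chains described here are 9 genes chosen by name, the alpha chains LAMA1, LAMA2, LAMA3, LAMA4 and LAMA5, the beta chains LAMB1, LAMB2 and LAMB3, and the gamma chain LAMC1, of 19062 genes with a current symbol on the array. All probes whose RefSeq accession maps to one of these symbols were taken, which gave 14 probes, with 4 for LAMA4, 2 for LAMA1, 2 for LAMB2 and 1 for each of the other 6 genes.

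The cells were HepaRG, a human hepatoma line, labelled a hepatic stem cell, whose cultures are known to give both hepatocyte-like and biliary-like cells. All groups are this 1 line, so no group stands for liver tissue or for several donors. Gene expression was measured with 1-colour Agilent arrays, 4 per condition, on day 4 of culture (D4), on day 15 (D15), on day 30 without DMSO (D30 − DMSO), on day 30 after 2% DMSO from day 15 (D30 + DMSO), and on day 34, 4 days after DMSO was taken away (D34 ± DMSO). D4, D15 and D30 − DMSO never received DMSO. The comparisons ask how laminin transcripts moved as the cells differentiated, what DMSO addition changed, and what differed 4 days after its removal. No array came from day-34 cells kept in DMSO, so removal and 4 more days of culture cannot be told apart. Changes described below as after removal carry both.

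The signals below are intensity units after each array was scaled to a common 75th percentile of 571 units, and log2 values are relative to that percentile. Before scaling, the 75th percentile lay between 407 and 766 units over the 20 arrays, and replicate arrays correlated across probes with r between 0.955 and 0.992. A probe was tested if it was well above background on every array of some condition, which held for 26531 of 42405 probes and for 13 of the 14 laminin probes. Between any pair of conditions, a probe counted as called when limma's adjusted p (Benjamini-Hochberg, over all tested probes) was below 0.005 and the change exceeded 2-fold. The arrays lay on 4 slides, scanned in 2 sessions, and slide 4 alone held the second session. The D30 + DMSO arrays lay on slides 3 and 4 only, whereas the D30 − DMSO arrays were spread over slides 1, 2, 3 and 4. DMSO and slide thus partly coincide, and the main fit had no slide term. The study's methods describe the 4 arrays of a condition as biological replicates that were independent of each other. In such bulk RNA, fewer cells of a type and less RNA per cell cannot be told apart. Signals of different probes were not compared as levels.

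With DMSO, 3 alpha chains and no other member changed past the thresholds. LAMA4, by its brightest probe, and LAMA1 fell with DMSO and rose after its removal, and LAMA3 did the opposite. The 4 LAMA4 probes did not all move this way. Between D30 − DMSO and D30 + DMSO, 4 of the 13 laminin probes were called, 1 higher and 3 lower, where 5.82% of all tested probes were called, 1.68% higher and 4.14% lower. Between D30 + DMSO and D34 ± DMSO, 3 probes were called, 2 higher and 1 lower, where 6.96% of all probes were called, 4.92% higher and 2.04% lower. These comparisons share the D30 + DMSO arrays. No laminin probe was called from D4 to D15, where 9.26% of all probes were, from D15 to D30 − DMSO, where 0.00377% were, or between D34 ± DMSO and D30 − DMSO, where 1.49% were. Over the 5 conditions, limma's F-test (Bonferroni p below 0.001, and condition means spread over 3-fold) passed 2 of the 13 laminin probes, those of LAMA1 and of LAMA4, where 4.98% of all probes passed.

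**Figure D1:**
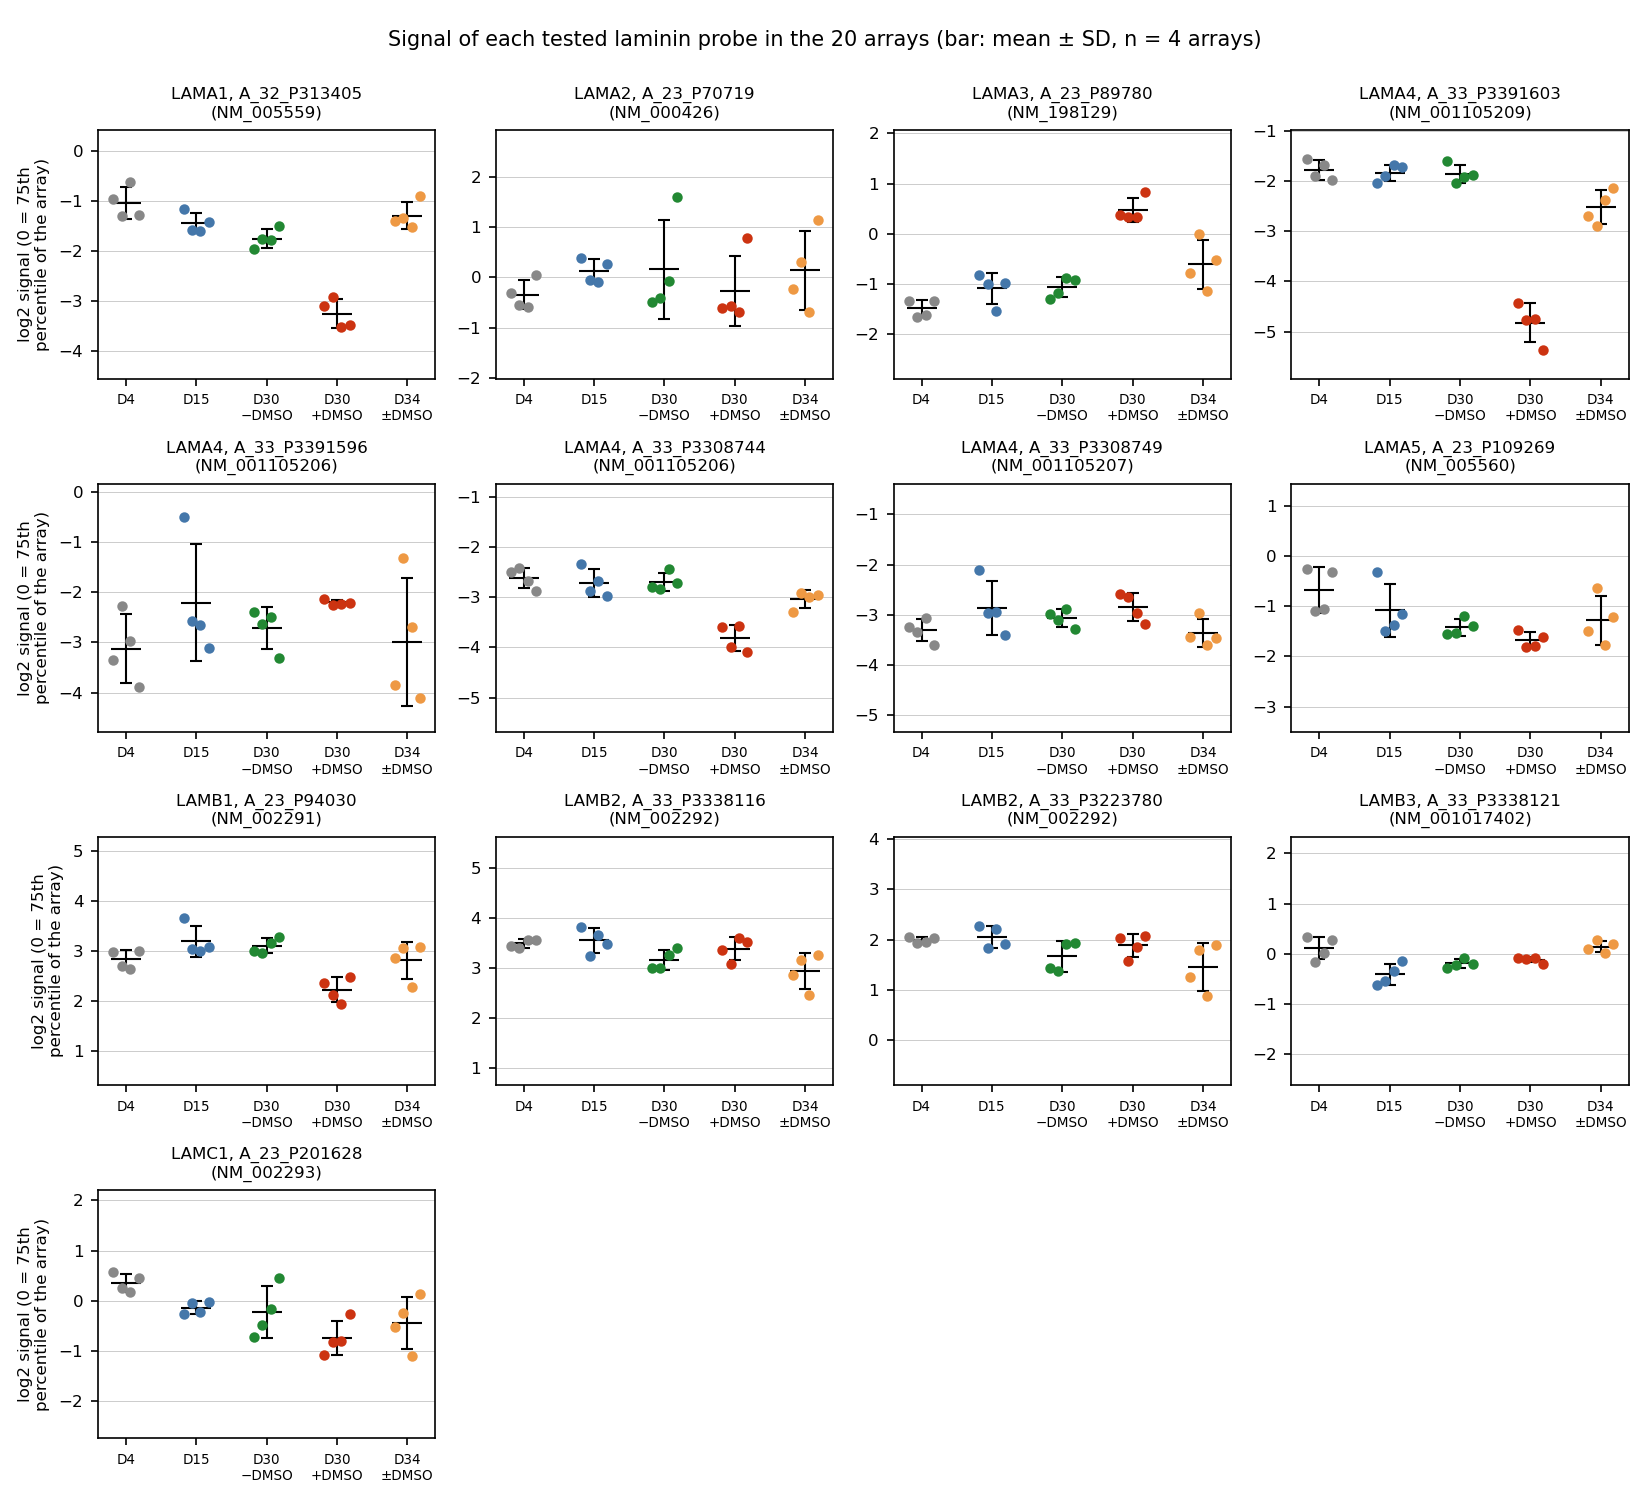
Log2 signal of each of the 13 tested laminin probes (y axis, 0 is the 75th percentile of the array, every panel spans the same number of log2 units) in the 20 arrays by condition (x axis). Points are single arrays and bars are mean ± SD of 4 arrays. At D30 + DMSO the 4 arrays lie below every other array for LAMA1 and for LAMA4 A_33_P3391603 and A_33_P3308744, and above every other array for LAMA3.

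To show the regulatory sequence beside the chains that moved in opposite directions, the 250 bases before 1 annotated start are given for LAMA3, which rose with DMSO, and LAMA4, whose brightest probe fell. Both come from RefSeq on GRCh38.p14 and read 5′ to 3′ along the gene. The first lies on the plus strand at chr18:23872770-23873019 and the second on the minus strand at chr6:112254568-112254817. Capitals mark matches, on either strand, to the AP-1 site TGANTCA and the GC box GGGCGG, the letters that AP-1 and Sp1-type factors are known to bind.
LAMA3: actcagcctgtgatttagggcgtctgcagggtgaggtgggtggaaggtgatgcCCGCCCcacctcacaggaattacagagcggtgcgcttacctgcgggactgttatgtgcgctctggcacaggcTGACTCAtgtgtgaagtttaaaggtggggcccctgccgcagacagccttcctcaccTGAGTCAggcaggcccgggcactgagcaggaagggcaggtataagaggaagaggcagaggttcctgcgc
LAMA4: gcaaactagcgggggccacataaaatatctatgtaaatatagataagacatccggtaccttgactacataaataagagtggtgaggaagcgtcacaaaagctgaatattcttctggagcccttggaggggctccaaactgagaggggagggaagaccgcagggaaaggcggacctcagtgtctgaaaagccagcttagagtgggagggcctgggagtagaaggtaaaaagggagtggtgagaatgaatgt
The LAMA3 stretch holds 2 AP-1 matches, beginning 125 and 69 bases before the start, and 1 GC box match, while the LAMA4 stretch holds none of these letters. Of 35116 annotated human promoter stretches of this length, 6.57% hold at least 1 AP-1 match, 0.402% hold 2 or more and 42.6% hold a GC box match. Among the 8 members with an annotated stretch, AP-1 matches occurred in LAMA3 and in 1 of the 3 LAMB3 starts, GC box matches in 6 genes, a CCAAT box (CCAAT, in 32.0% of all stretches) in LAMB3 alone, and a TATA box (TATAAA, in 3763 of all stretches) in no gene. LAMA2, like LAMA4, held none of the 4 motifs. This LAMA3 start lies 183567 bases inside the annotated gene, whereas the LAMA3 probe is annotated to the long transcript. The probe does not tell which start its transcripts used, so this stretch may not be the promoter behind the measured signal. Matches describe letters and are not evidence of binding.

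LAMA4 encodes the alpha-4 chain, known from laminins of blood vessels and other mesenchymal tissue. Its brightest probe, A_33_P3391603 (NM_001105209), read 194, 152, 179 and 145 units on the 4 arrays of D4, 138, 153, 177 and 174 at D15 and 188, 139, 151 and 155 at D30 − DMSO. At D30 + DMSO the same probe read 26.4, 21.0, 21.3 and 13.9, with 3 of these 4 arrays well above background, and at D34 ± DMSO it read 88.1, 76.9, 111 and 130.4. The D30 + DMSO arrays were thus the lowest of all 20, and D34 ± DMSO lay between them and the other 3 conditions without overlap. The means were 158 ± 21.1 without DMSO, 20.7 ± 5.17 with DMSO and 101 ± 23.9 after removal (SD, n = 4 each). With DMSO, LAMA4 fell by 2.97 (log2 scale, SE 0.19, limma adjusted p = 1.46e-08), and it rose by 2.30 after removal (SE 0.19, limma adjusted p = 1.24e-07). With normexp background correction the change with DMSO was -1.30 and still called, and the change after removal was 0.88, under 2-fold, and that call was lost. It differed by -0.66 between D34 ± DMSO and D30 − DMSO (95% interval -1.07 to -0.25), which was not called (limma adjusted p = 0.0610). D4, D15 and D30 − DMSO stood next to each other in the order of levels and overlapped. Within slide 3, with 2 arrays against 1, the log2 difference with DMSO was -3.00, and within slide 4, again with 2 against 1, it was -3.17.

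The 4 LAMA4 probes did not move alike. A_33_P3308744 (NM_001105206) read 81.7, 79.6, 105 and 87.2 units at D30 − DMSO, 47.1, 35.8, 47.8 and 33.6 at D30 + DMSO and 58.0, 76.1, 72.1 and 73.2 at D34 ± DMSO. These conditions did not overlap with each other, but D34 ± DMSO overlapped with D15. With DMSO it fell by 1.12 (log2 scale, SE 0.17, limma adjusted p = 1.02e-04). Its difference of 0.78 after removal had an adjusted p of 0.00227 in limma but was under 2-fold, so it was not called. The call for DMSO addition was lost with the slide as a block (-0.98), with normexp (-0.47), without slide 4 (adjusted p = 0.00557 in limma) and under the methods' t-test after Benjamini-Hochberg adjustment over all probes (adjusted p = 0.00758).

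The other LAMA4 probes were called in no comparison. A_33_P3391596, which carries the same accession NM_001105206, read 108, 92.1, 102 and 57.2 at D30 − DMSO and 130.2, 119.7, 122 and 124 at D30 + DMSO. All 4 DMSO arrays thus lay above all D30 − DMSO arrays, the opposite direction to A_33_P3391603. The log2 difference was 0.50 (95% interval -0.67 to 1.67), and 1.12 with the slide as a block. This probe was uneven elsewhere, with 402, 95.3, 91.0 and 65.5 units at D15 and 39.4, 230.0, 87.6 and 33.0 at D34 ± DMSO. A_33_P3308749 (NM_001105207) read 72.4, 66.2, 76.9 and 58.3 without DMSO and 95.5, 90.7, 73.2 and 63.1 with it, and its groups overlapped in all 5 comparisons. Across the 20 arrays, as a description over arrays that share conditions and slides, the log2 values of A_33_P3391603 and A_33_P3308744 had r = 0.909, those of A_33_P3391596 and A_33_P3308749 had r = 0.792, and the 4 pairs across these couples had r between -0.291 and -0.0014. Of the 4 probes, 2 were thus called lower with DMSO and 2 were not called, and which LAMA4 transcripts each one reads was not tested.

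LAMA1 encodes the alpha-1 chain, the alpha chain of early embryonic basement membranes. Probe A_32_P313405 (NM_005559) read 292, 229.7, 372 and 236 at D4, 254, 191, 187 and 213 at D15 and 146, 169, 166 and 201 at D30 − DMSO. It read 66.6, 75.8, 49.8 and 51.6 at D30 + DMSO and 214, 226, 199 and 304 at D34 ± DMSO. All 4 DMSO arrays lay below every other array, and the remaining conditions overlapped with their neighbours in the order D4, D34 ± DMSO, D15, D30 − DMSO. LAMA1 fell by 1.50 with DMSO (log2, SE 0.19, limma adjusted p = 1.48e-05) and rose by 1.95 after removal (SE 0.19, limma adjusted p = 5.14e-07), and after removal it stood 0.46 above D30 − DMSO (95% interval 0.06 to 0.85), which was not called (limma adjusted p = 0.224). Within slides, the difference with DMSO was -1.04 on slide 3 and -1.99 on slide 4. With normexp it was -0.83, under 2-fold, and that call was lost, while the rise after removal was 1.18 and still called. LAMA1 also missed the F-test threshold without D30 + DMSO replicate 1, 3 or 4, with Bonferroni-adjusted p of 0.00124, 0.00235 and 0.00231 in limma. The second LAMA1 probe, A_24_P100613, was too dim to be tested, with 0 to 2 of 4 arrays per condition well above background. At D30 + DMSO 0 of 4 arrays read it well above background, and at D34 ± DMSO 2 of 4 did. Set against the detection limit at D30 + DMSO, the mean of all 4 D34 ± DMSO arrays was 1.84-fold higher. As only 2 of these arrays were well above background, this is not a firm minimum.

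LAMA3 encodes the alpha-3 chain of epithelial laminins, which anchors basal cells through integrin alpha-6 beta-4. Its single probe, A_23_P89780 (NM_198129), read 226, 182, 186 and 227 at D4, 324, 284, 196 and 288 at D15 and 232, 254, 311 and 301 at D30 − DMSO. It read 736, 721, 724 and 1014 at D30 + DMSO and 334, 568, 258 and 398 at D34 ± DMSO, so the DMSO arrays were the highest of all. The mean signal went from 274 ± 37.7 to 799 ± 144 with DMSO and was 389.6 ± 132 after removal (SD, n = 4 each). LAMA3 rose by 1.54 with DMSO (log2, SE 0.21, limma adjusted p = 4.36e-05) and fell by 1.08 after removal (SE 0.21, limma adjusted p = 9.99e-04). The fall after removal was close to the 2-fold limit: without D30 + DMSO replicate 4 it was -0.96 and without D34 ± DMSO replicate 3 it was -0.90, so that neither was called. It was also not called with normexp (-0.95), without slide 4 (-0.99), with only the arrays compared (adjusted p = 0.0187 in limma) or under the methods' t-test (adjusted p = 0.0452). Within slides the rise with DMSO was 1.65 on slide 3 and 1.51 on slide 4. LAMA3 missed the F-test threshold over the 5 conditions, with a Bonferroni-adjusted p of 0.00998 in limma and a 3.87-fold range of condition means.

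LAMA2 and LAMA5, the alpha chains known from muscle and from most adult epithelia, were called in no comparison. LAMA2 (A_23_P70719, NM_000426) read 406, 431, 545 and 1731 at D30 − DMSO, 374, 383, 356 and 986 at D30 + DMSO and 487, 712, 356 and 1267 at D34 ± DMSO. The highest value in each of these conditions was replicate 4, on slide 4. The log2 difference of LAMA2 with DMSO was -0.43, with a 95% interval of -1.35 to 0.49 that leaves room for more than a 2-fold fall. LAMA5 (A_23_P109269, NM_005560) averaged 370.1 ± 114 at D4, 285 ± 119 at D15, 215 ± 25.6 at D30 − DMSO, 179.7 ± 19.8 at D30 + DMSO and 246 ± 88.1 at D34 ± DMSO. All neighbouring conditions of LAMA5 overlapped, and its difference with DMSO was -0.26 (95% interval -0.82 to 0.31).

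LAMB1 encodes the beta-1 chain, a partner of LAMC1 in many laminins. Its probe A_23_P94030 (NM_002291) read 4468, 3729, 3572 and 4561 units at D4, 7171, 4675, 4530 and 4840 at D15 and 4584, 4465, 5122 and 5556 at D30 − DMSO. It read 2941, 2476, 2204 and 3204 at D30 + DMSO and 4119, 4735, 2765 and 4786 at D34 ± DMSO. The DMSO arrays lay below all D30 − DMSO arrays and overlapped those after removal. The log2 difference with DMSO was -0.88 (SE 0.19, 95% interval -1.27 to -0.48), which passed the p limit (limma adjusted p = 0.00264) but not 2-fold, and that after removal was 0.58 (limma adjusted p = 0.0334). With the slide as a block, the adjusted p for DMSO addition was 0.00545.

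LAMB2, the beta-2 chain of vessel and synaptic basement membranes, has a pair of probes under NM_002292 that gave nearly the same differences. A_33_P3338116 averaged 5157 ± 719 at D30 − DMSO, 6034 ± 922 at D30 + DMSO and 4475 ± 1061 at D34 ± DMSO, and A_33_P3223780 averaged 1838 ± 382, 2126 ± 321 and 1627 ± 508. Their log2 values had r = 0.948 over the 20 arrays. The log2 differences were 0.22 and 0.22 with DMSO and -0.45 and -0.43 after removal, none of them called, and the 95% intervals for DMSO addition ended at 0.60 and 0.65, below 2-fold.

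LAMB3 (A_33_P3338121, NM_001017402), the beta-3 chain that joins LAMA3 in a laminin of skin, had the smallest difference with DMSO of the 13 probes. It read 471, 488, 541 and 498 at D30 − DMSO and 537, 529.7, 541 and 497 at D30 + DMSO, a difference of 0.08 (95% interval -0.20 to 0.35). From D4, with 718, 512, 578 and 687 units, to D15, with 372, 392, 447 and 518, the difference was -0.53 (limma adjusted p = 0.00517), under 2-fold and not called.

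LAMC1 (A_23_P201628, NM_002293), the gamma-1 chain of most laminins, read 847, 678, 647 and 779.5 at D4 and 476, 554, 488 and 564 at D15, with no overlap between these days. It read 345, 409.6, 508 and 787 at D30 − DMSO, 271, 324, 329 and 474 at D30 + DMSO and 399.7, 479.9, 266 and 625 at D34 ± DMSO, where the groups overlapped. The differences were -0.50 from D4 to D15 (95% interval -1.03 to 0.03) and -0.51 with DMSO (95% interval -1.05 to 0.02), and neither was called by limma (adjusted p = 0.186 and adjusted p = 0.195).

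**Figure D2:**
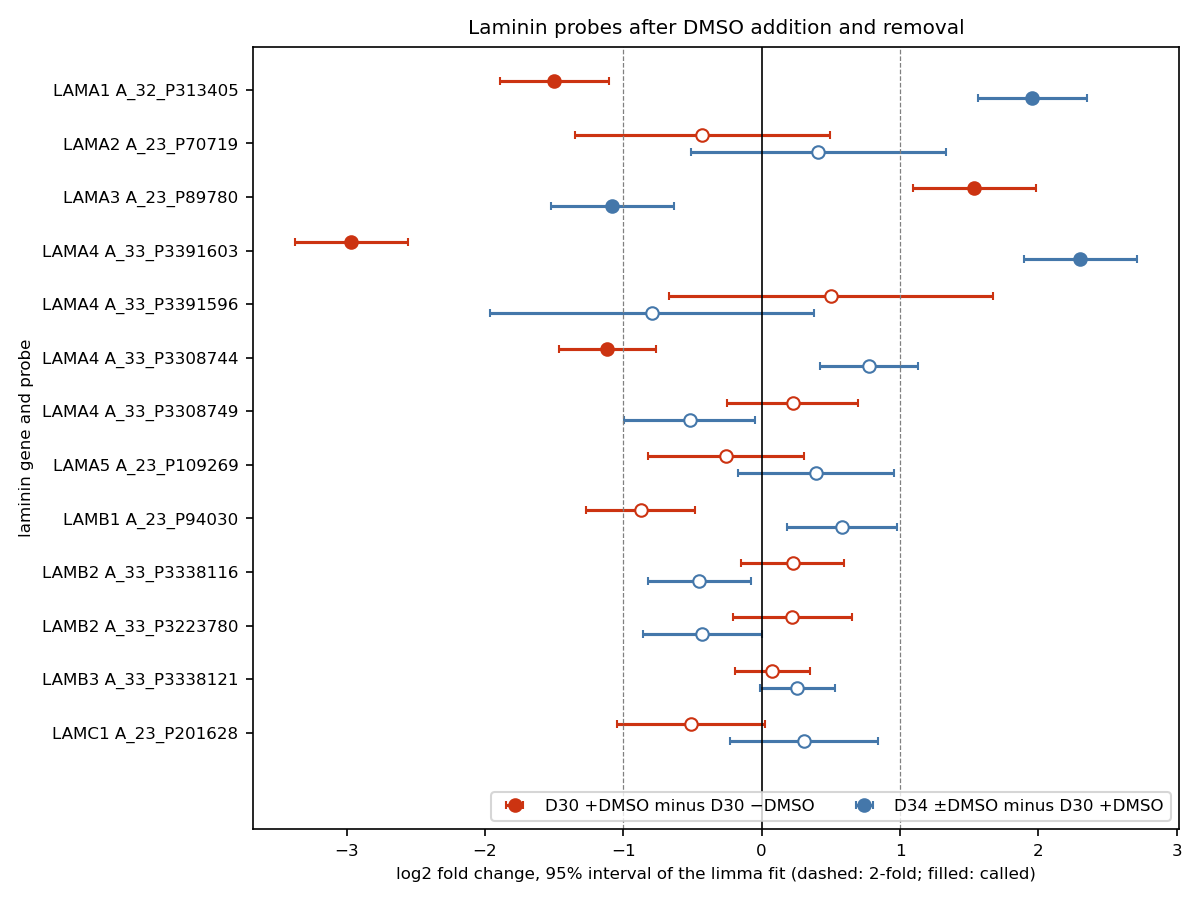
Log2 fold change of the 13 tested laminin probes (x axis) with its 95% interval from limma, for DMSO addition (red) and removal (blue), 4 arrays per condition. Filled points were called and dashed lines mark 2-fold. LAMA4 A_33_P3391603 reaches -2.97 and 2.30, LAMA1 -1.50 and 1.95, and LAMA3 1.54 and -1.08.

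The median log2 difference of the 13 laminin probes was -0.26 with DMSO and 0.30 after removal, beside medians of 0.04 and -0.06 over all tested probes. From D4 to D15 the laminin median was 0.06 beside 0.03, from D15 to D30 − DMSO -0.09 beside -0.02, and between D34 ± DMSO and D30 − DMSO -0.21 beside -0.03. Groups did not overlap for 6 laminin probes with DMSO, where 25.3% of all probes did not overlap, for 5 after removal (24.0% of all probes) and for 3 between D34 ± DMSO and D30 − DMSO (11.9%). They did not overlap for 1 laminin probe from D4 to D15 (24.0%) and for 0 from D15 to D30 − DMSO (2.27%). At the last of these steps limma called 0 laminin probes, 1 laminin probe had an unadjusted p below 0.05, and the methods' t-test also called 0. For D4 to D15 and for D34 ± DMSO against D30 − DMSO, limma and the methods' t-test again called 0, with 2 and 4 laminin probes at an unadjusted p below 0.05.

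Each laminin holds a gamma chain, and LAMC1 is the only gamma chain among the members. The log2 ratio of the brightest probe of each of the other 8 genes to LAMC1 was therefore taken within each array. This ratio cancels the scaling of the array but compares changes only, not amounts of chain. It does not show which chains assemble with LAMC1. The LAMA4 ratio was -1.63 ± 0.61 at D30 − DMSO, -4.09 ± 0.73 at D30 + DMSO and -2.09 ± 0.58 at D34 ± DMSO (SD, n = 4). The LAMA3 ratio was -0.84 ± 0.37, 1.21 ± 0.16 and -0.18 ± 0.38 in the same order. The LAMA1 ratio was -1.52 ± 0.34, -2.51 ± 0.56 and -0.86 ± 0.30. The ratio of LAMB2 changed by 0.73 with DMSO and by -0.76 after removal, again without overlap. LAMB2 itself differed by 0.22 and -0.45 and LAMC1 by -0.51 and 0.30, so part of this ratio change is that of LAMC1. The LAMB1 ratio changed by -0.36 and 0.28 with overlapping groups. From D4 to D15, the ratios of LAMA2, LAMA3 and LAMB1 were higher by 0.97, 0.90 and 0.86 with no overlap. The LAMC1 difference of -0.50 at this step enters each of these ratios. Of the 8 ratios, 3 had groups that did not overlap from D4 to D15, where 33.8% of all genes had such a ratio to LAMC1. With DMSO 4 of 8 did, beside 18.3% of all genes, and after removal 4 of 8, beside 12.6%. Between D34 ± DMSO and D30 − DMSO 1 of 8 did, beside 3.48%, and from D15 to D30 − DMSO 0 of 8, beside 0.504%. In all, 12 of 40 ratios and comparisons had groups that did not overlap, each with the smallest two-sided exact permutation p that 4 arrays against 4 can give, 0.0286. After Benjamini-Hochberg adjustment over the 40, this was an adjusted p of 0.0952, so no ratio passed 0.05.

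**Figure D3:**
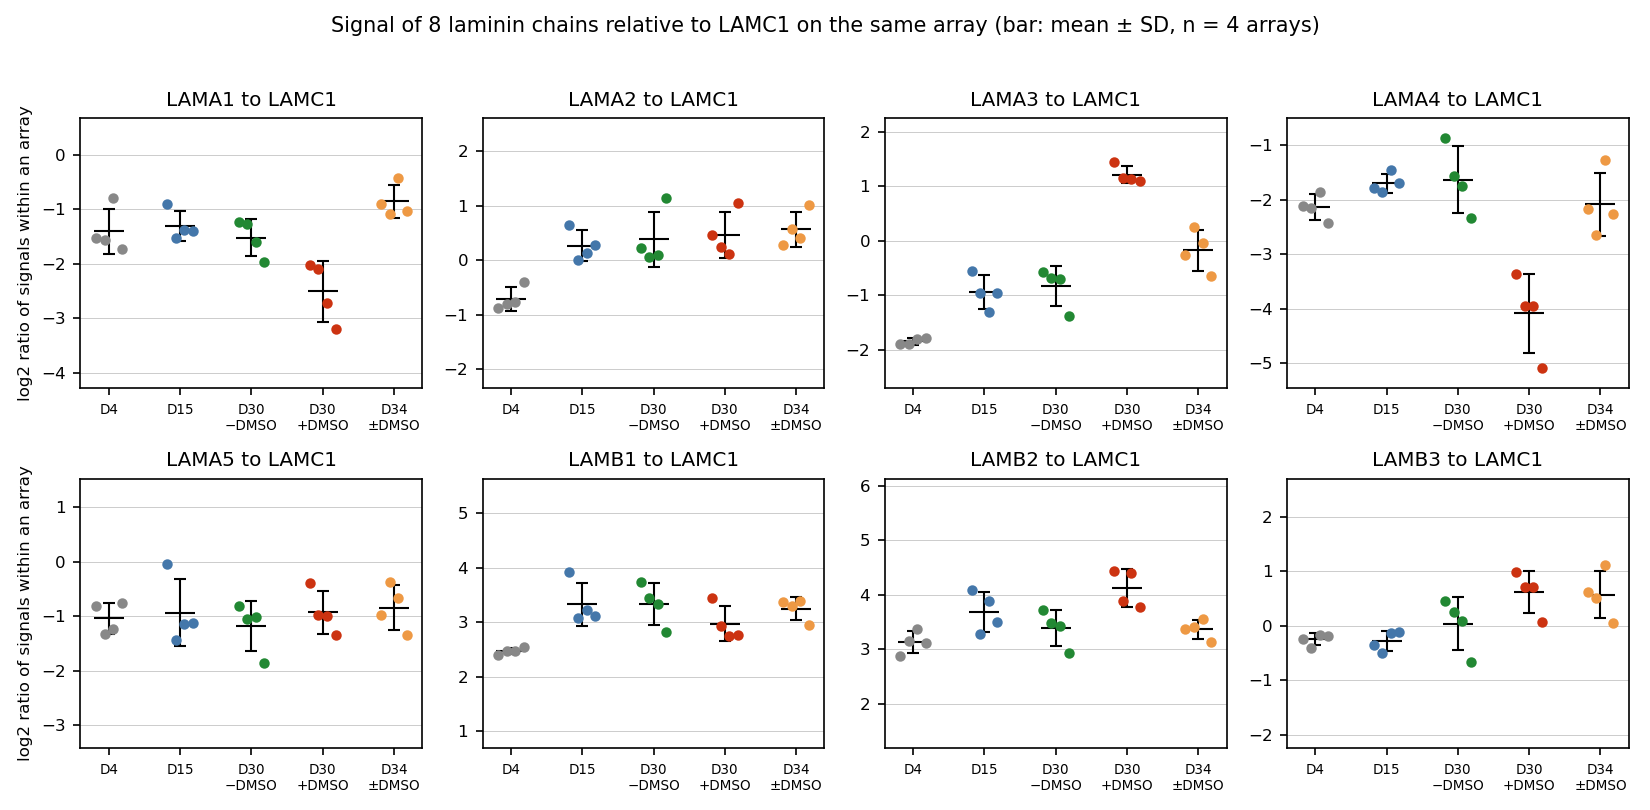
Log2 ratio of the signal of 8 laminin chains to that of LAMC1 on the same array (y axis) by condition (x axis). Points are single arrays and bars are mean ± SD of 4 arrays. The LAMA3 ratio averages 1.21 at D30 + DMSO and -0.84 at D30 − DMSO, and the LAMA4 ratio averages -4.09 and -1.63.

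Other genes of laminin biology were followed with 1 probe per gene. No probe of the laminin chain LAMB4 was tested. LAMC3, the gamma-3 chain, was called in no comparison and differed by 0.09 with DMSO (SE 0.32, limma adjusted p = 0.911). The chain LAMB3 was not called where its partner LAMA3 was.

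Of 13 laminin receptors and their partners, 12 were tested, and 1 was called with DMSO and 1 after removal, where 5.94% and 7.09% of all genes were called. Both calls were ITGB4, the integrin beta-4 subunit that binds laminins at hemidesmosomes. ITGB4 fell by 1.99 with DMSO (log2, SE 0.37, limma adjusted p = 8.34e-04) and rose by 2.04 after removal (SE 0.37, limma adjusted p = 5.42e-04), the opposite directions to LAMA3. ITGA6, the alpha-6 subunit that pairs with it, differed by 0.58 with DMSO (SE 0.17, limma adjusted p = 0.0246) and was not called. The median of the 12 receptors was 0.10 with DMSO and -0.34 after removal, beside 0.04 and -0.07 over all genes. From D4 to D15, ITGB1, the beta-1 subunit common to most laminin-binding integrins, fell by 1.50 (SE 0.17, limma adjusted p = 2.72e-06), and ITGB4 fell by 1.85 (SE 0.37, limma adjusted p = 0.00107), 2 of 12 where 9.51% of all genes were called.

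Of 18 other basement membrane proteins, 15 were tested. With DMSO, 1 rose and 2 fell, where 5.94% of all genes were called. COL18A1, a heparan sulfate collagen made by hepatocytes, rose by 1.18 (SE 0.27, limma adjusted p = 0.00415). COL4A6, an alpha chain of type IV collagen, fell by 1.02 (SE 0.21, limma adjusted p = 0.00196), and SPARC, a collagen-binding matrix protein, fell by 1.16 (SE 0.15, limma adjusted p = 1.60e-05). After removal 3 rose, namely COL4A6 by 1.37, NID1, which links laminin to type IV collagen, by 1.29, and HSPG2, the proteoglycan perlecan, by 1.62 (limma adjusted p = 1.08e-04, adjusted p = 1.06e-04 and adjusted p = 5.64e-04). HSPG2 was called with 1 of its 4 tested probes only. After removal, 7.09% of all genes were called. The list's median was -0.20 with DMSO and 0.24 after removal, beside 0.04 and -0.07 over all genes.

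Of these 15 genes, 6 were called from D4 to D15, 1 higher and 5 lower, where 9.51% of all genes were called. COL4A1 and COL4A2, the most widespread type IV collagen chains, fell by 2.33 and by 2.00, COL4A4 fell by 1.54, NTN4, a netrin that binds laminin gamma chains, fell by 1.80, SPARC fell by 1.68, and SMOC1 rose by 2.67. With DMSO, 1 of 2 SMOC1 probes was called higher, while the brighter one differed by 0.29 (limma adjusted p = 0.323). The median of the list at this step was -0.89, that of all genes 0.04 and that of the 13 laminin probes 0.06. Whether this step differed between these genes and the laminins was not tested.

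Of 10 adhesion adaptors, all tested, FERMT1, a kindlin that activates integrins in epithelia, was the 1 gene called when the brightest probe of each gene was taken. It fell by 1.35 with DMSO (SE 0.17, limma adjusted p = 1.78e-05) and rose by 1.15 after removal (SE 0.17, limma adjusted p = 7.37e-05). Of all genes, 5.94% and 7.09% were called in these comparisons. FERMT2, another kindlin, had 1 of 2 probes called lower from D4 to D15, while its brighter probe differed by -0.74, under 2-fold (limma adjusted p = 0.00259). No gene of these 4 lists was called from D15 to D30 − DMSO or between D34 ± DMSO and D30 − DMSO, where 0.00450% and 1.52% of all genes were.

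**Figure D4:**
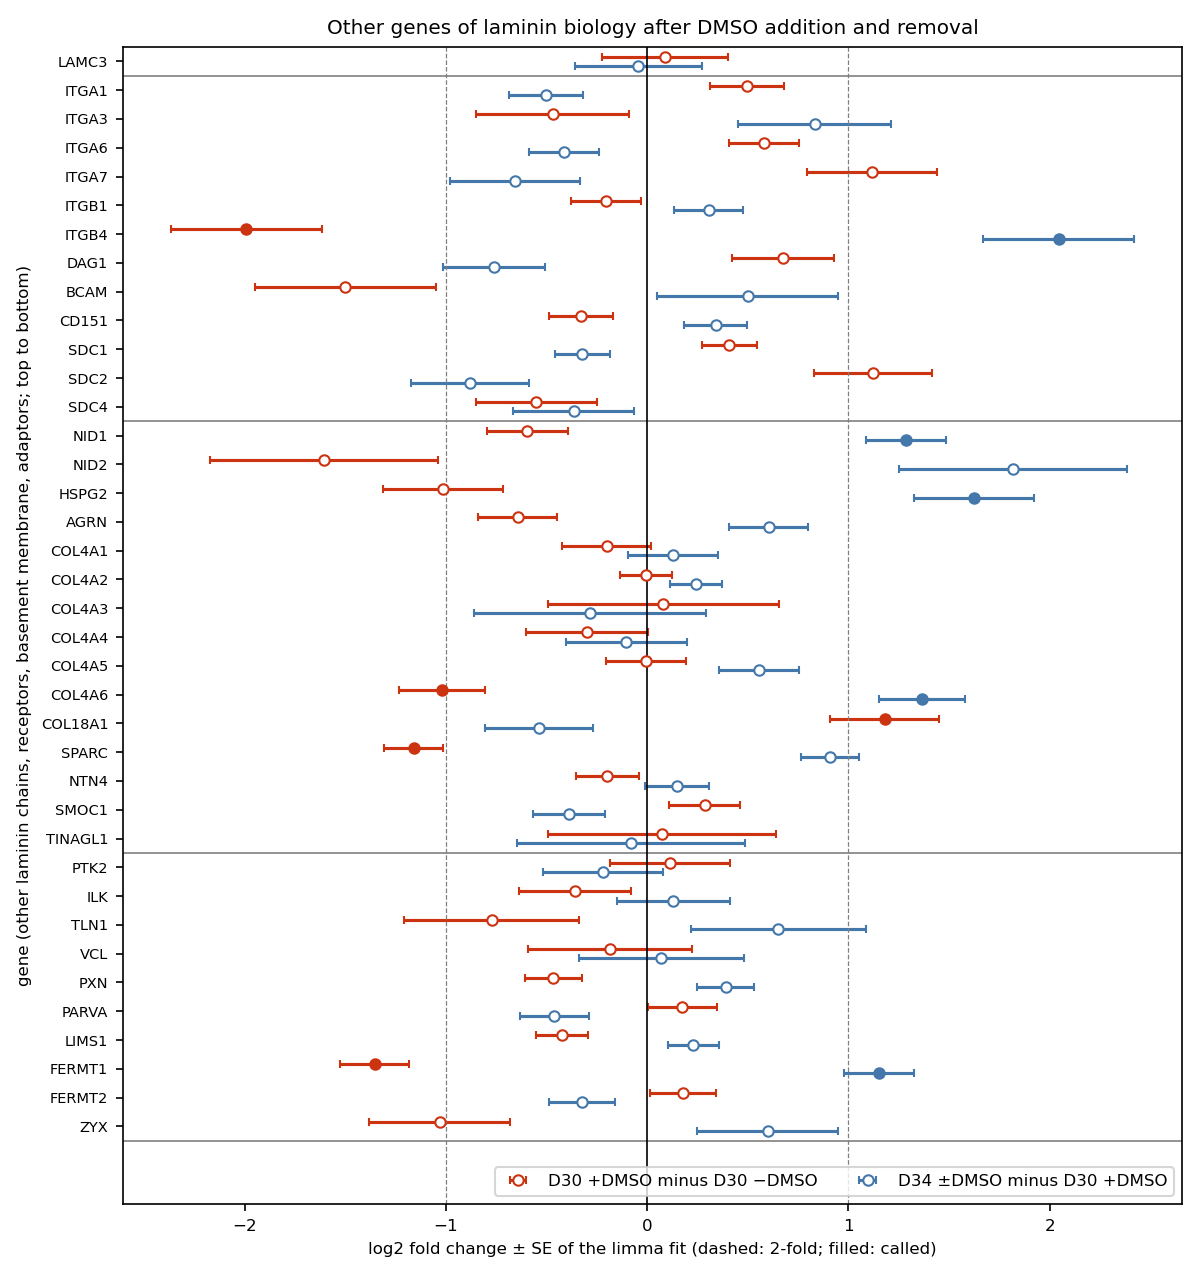
Log2 fold change ± SE from limma (x axis) of other laminin chains, laminin receptors, other basement membrane proteins and adhesion adaptors, 1 probe per gene (rows), for DMSO addition (red) and removal (blue), 4 arrays per condition. Filled points were called. ITGB4 reaches -1.99 and 2.04, and FERMT1 -1.35 and 1.15.

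The labelled cell type and cells that could carry laminins were checked with marker lists. All 8 hepatocyte markers were measured, and their summed signal lay between 86614 and 179017 units at D4 and between 751957 and 1093820 at D15. All 8 genes were called higher at this step, where 9.51% of all genes were called. At D30 the summed signal lay between 958665 and 1017260 without DMSO and between 1095130 and 1798120 with it. With DMSO limma called 0 of the 8, where 5.94% of all genes were called. Of 8 biliary and progenitor markers, 6 were measured, and EPCAM did not stand well above background on any of the 20 arrays. With DMSO, SOX9 rose by 1.31 and SPP1 fell by 1.78, and after removal SOX9 fell by 2.09 and SPP1 rose by 2.22 (limma adjusted p between 1.78e-06 and 7.42e-04). These were 2 of 6 in each of these comparisons, where 5.94% and 7.09% of all genes were called.

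The summed signal of stromal markers was lowest at D30 + DMSO, as the brightest probes of LAMA4 and LAMA1 were. Of 8 such genes 6 were measured, and COL1A2 and PDGFRB stood well above background on no array. Their summed signal lay between 5890 and 10850 units at D30 − DMSO, between 2193 and 2651 at D30 + DMSO and between 5935 and 11077 at D34 ± DMSO, without overlap between DMSO and either neighbour. Of the 6, 2 were called in both comparisons, where 5.94% of all genes were called with DMSO and 7.09% after removal. With DMSO, DCN fell by 2.97 and LUM fell by 2.68, and they rose by 2.97 and 2.43 after removal (limma adjusted p between 2.30e-07 and 3.40e-06). Of 6 endothelial markers 3 were measured, and no probe of PECAM1 or VWF was tested. TIE1 was well above background on none of the 20 arrays, and TEK on none of the D4 or D30 + DMSO arrays. TEK, an endothelial receptor kinase, was well above background on 3 of 4 D30 − DMSO and 4 of 4 D34 ± DMSO arrays. It passed the filter only through D34 ± DMSO, where it was highest. Its D30 + DMSO values lay at the floor, so no p-value is given. Set against the detection limit at D30 + DMSO, TEK was 2.79-fold lower with DMSO and at least 4.53-fold higher after removal. The first value is not a firm minimum, as only 3 of the 4 D30 − DMSO arrays averaged were well above background. The median log2 difference of the 3 measured endothelial markers went the other way, 0.33 with DMSO and -0.21 after removal. The summed signal of the endothelial markers lay between 353 and 701 units at D30 − DMSO, between 383 and 824 at D30 + DMSO and between 251 and 391 at D34 ± DMSO, so that neighbouring conditions overlapped. The part of these cell types in the laminin changes was not tested.

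Over the 20 arrays, the non-laminin genes whose log2 values ran most nearly with LAMA4 A_33_P3391603, among 14112 named genes, were CCDC178 with r = 0.986, FXYD3 with r = 0.983 and LSP1P5 with r = 0.978. Those nearest to LAMA1 were IRAG2 with r = 0.963, CD109 with r = 0.962 and TRIP6 with r = 0.951. These arrays share conditions and slides, and the correlations are descriptions.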

How the data were processed

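The 20 arrays were processed with Agilent Feature Extraction, version 10.7.3.1 in the submitters' processing notes and 10.7.1.1 in the array headers. The authors deposited for each array a processed signal, an intensity that is background-subtracted but not scaled between arrays, the median intensity of each spot and its background, flags (other), and a matrix of log2 values whose baseline per probe is not stated. The columns of that matrix had medians between -0.20 and 0.17, and their deviations from probe means correlated with those of the scaled signals at r between 0.997 and 1.00. Outlier spots were left out, and spots of a probe were averaged over 58717 spots of 42405 probes. Each array was brought to the common 75th percentile, a floor of 1 unit was then set, and log2 was taken. RefSeq accessions (GRCh38.p14 table) named 24826 probes. Values missing because all spots of a probe were flagged numbered 582, none of them in a laminin probe.

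One linear model with 5 condition means over the 20 arrays was fitted with limma 3.58.1 in R 4.3.3 over 26531 probes. The study's methods set both thresholds. The fit was tested on simulated data. For list genes and ratios, the brightest probe of each gene was used, and shares of all genes are over 14232 named genes and 7982 probes without a symbol. Text names every laminin probe, at most 6 called genes of a list by size of change, and for each laminin passing the F-test the 3 most similar genes. ITGA6, FERMT2, SMOC1 with DMSO, TEK and the markers described as dim or untested were named after their values were seen. Members and lists were chosen with earlier results of these data known. How many arrays there are limits the precision. One listed gene is not reported here.

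The alternatives were normexp background correction with an offset of 50, quantile normalization, the authors' log2 matrix, a floor of 10, no filter or a stricter filter on dim probes, 1 probe per gene, a replicate block, a slide block, a fit to just the compared arrays, the t-test and analysis of variance of the methods, an adjusted p below 0.05, and leaving out each array. Leaving out slide 4 was added after the data were seen. The same replicate numbers recur in every condition. Deviations of same-numbered arrays correlated above 0.1 in 28 of 40 pairs (median r 0.27), beside 43 of 120 pairs of other numbers (median r -0.16). Same-numbered pairs on different slides had a median r of 0.06. The sample titles do not state a pairing, so the numbers were not taken to pair samples in the main fit.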

Additional observations from a re-analysis of the deposited data

Results flagged for a closer look

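Of 65 sets of 4 arrays, 1 for each tested laminin probe and condition, 3 held an array that stood apart from the other 3 by more than the 95% limit of Dixon's ratio of gap to range. Chance gives about 1 such set in 20. LAMA2 at D30 + DMSO had its highest value on replicate 4 (log2 0.79, next -0.57, ratio 0.928). LAMA3 at D30 + DMSO had its highest value on replicate 4 (log2 0.83, next 0.37, ratio 0.938), and both arrays are the same one, on slide 4. LAMB1 at D15 had its highest value on replicate 1, on slide 2 (log2 3.65, next 3.08, ratio 0.856). Without D30 + DMSO replicate 4, the rise of LAMA3 with DMSO remained called.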

How the results depend on the processing

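Of 33 alternatives, 20 left out 1 array each. The 7 called probe changes were recomputed 228 times, kept their call 216 times, lost it 12 times and never reversed, and of 1892 values of the 13 tested probes that were not called none became called, while 41 changed sign. With no filter on dim probes the removal calls numbered 4 of 14, the added one being LAMA1 A_24_P100613, which 0 of 4 D30 + DMSO arrays read well above background. With normexp, which adds 50 units to every signal, the calls numbered 2 for DMSO addition and 1 for removal, and 0 probes passed the F-test. That F-test count was 1 with probes well above background on all arrays, a filter that left LAMA4 A_33_P3391603 (19 of 20 arrays) untested. The count was 1 with the slide as a block and 0 without the 7 arrays of slide 4. At a Bonferroni-adjusted p below 0.05 the count was 3, where LAMA3 was added. Leaving out single arrays, the counts ranged from 4 to 4 for addition, 2 to 3 for removal and 1 to 2 for the F-test, where LAMA1 was lost without D30 + DMSO replicate 1, 3 or 4. Counts for the other 3 comparisons were 0 under every alternative. The LAMA3 fall after removal was lost in 6 alternatives and LAMA4 A_33_P3308744 with DMSO in 4. The 12 ratios without overlap became 10 with normexp. No other LAMC1 probe exists on this array, so that alternative was not run, and leaving out arrays was not run for ratios. LAMA4 A_33_P3391603 was well above background on 3 of 4 D30 + DMSO arrays, which limits its fold there.

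With a replicate block, the laminin calls numbered 4 for addition and 3 for removal, as without it, and 1 probe passed the F-test. Of the 20 arrays, 16 correlated best, among arrays of other conditions, with one of their own number, a hint from the data and not the design. Over 44 pairs of arrays on the same slide the median correlation of deviations was 0.374.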
